A study of Mus musculus with 27 samples.

Results

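Hepatic gene expression in mice fed a diet deficient in essential fatty acids (EFA) was compared with that in mice fed the AIN-93M purified diet, which served as control. A gene was counted as detected when the mean log2 intensity of either diet was above 6.64, the log2 of an intensity of 100. Of the 6478 genes detected on at least 1 of the 9 diets of the study, 6009 met this rule, and all of them were tested. Signal was above the level on both diets for 5659 genes, on the EFA-deficient diet only for 170 and on the control diet only for 180. Male C57BL/6 mice, 10 weeks old, ate 1 diet for 3 weeks and were not fasted before the liver was taken in the morning. Liver RNA of 3 mice per diet was hybridized to Affymetrix mouse genome arrays of 45101 probes, 1 array per mouse, so that 6 of the 27 arrays carry the comparison. The 3 arrays of the high-fructose diet and the 3 of the low n-3 diet are used beside them.

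The diets differed in more than essential fatty acids. In the EFA-deficient diet the fat was saturated and held no n-3 or n-6 fatty acids, the carbohydrate was nearly all sucrose, protein was higher and cholesterol was lower than in the control diet, whose carbohydrate was mostly polysaccharide and whose fat held polyunsaturated fatty acids. The lack of essential fatty acids and the sugar therefore cannot be told apart against control alone. The high-fructose diet is also rich in sugar but supplies essential fatty acids, and is for that reason set beside the results below. Its sugar is fructose in place of sucrose. It also holds less saturated fat, more monounsaturated fat and more cholesterol than the EFA-deficient diet. In that comparison these differences cannot be told apart from the lack of essential fatty acids. For the low n-3 diet the sample descriptions name low n-3 sunflower oil while the titles name a DHA supplement, and the diet is called low n-3 here after the descriptions. The paper gives its carbohydrate as mostly polysaccharide and its fat as mostly polyunsaturated. Against that diet too, the sugar and the kind of fat cannot be told apart from the lack of essential fatty acids.

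Linoleic acid (n-6) and alpha-linolenic acid (n-3) cannot be made by mammals. The liver turns them into longer and more unsaturated fatty acids with the desaturases Fads2 and Fads1 and the elongases Elovl5 and Elovl2. Polyunsaturated fatty acids are known to hold down the processing of the transcription factor Srebp-1c, which drives fatty acid synthesis, while sugar is known to activate ChREBP (Mlxipl), which acts on an overlapping set of genes. Cholesterol synthesis is driven mainly by Srebp-2, which is activated when sterols are scarce.

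Expression of 343 genes (5.71% of the 6009) differed from control at an adjusted p below 0.05 (limma, all 27 arrays in 1 fit, p adjusted by Benjamini-Hochberg over all genes and the 8 diets compared with control). Expression of 193 genes (3.21%) was higher and of 150 genes (2.5%) was lower in mice fed the EFA-deficient diet. With every array below an intensity of 100 raised to 100, 25 of the called genes were more than 2-fold higher and 14 more than 2-fold lower, a setting chosen after the data were seen. Genes for the synthesis of cholesterol, fatty acids and glycerolipids were among the increases, and most genes of the complement, coagulation and acute phase lists had a lower mean without passing the test. Over all 6009 genes, 3095 had a lower mean. Arrays of the diets did not overlap, higher, for 679 genes (11.3%) and, lower, for 713 (11.9%), and 331 of the 343 called genes were among them. The median gene stood at 99.5% of control. At an unadjusted p below 0.05, 1176 genes differed. The number of called genes was 184 with p adjusted over this comparison alone, 2 in a fit of the 2 diets alone, 8 with the methods' Dunnett test adjusted over genes, 145 when control replicate 2 was left out and 212 when EFA-deficient replicate 2 was. Of the 65 called genes named by a rule (all those described below other than Pmvk and Sc5d), 21 stayed called in each of the 6 fits that left out 1 array. These were 12 genes that rose (Acsl3, Apoa4, Apoc2, Atg16l2, Dld, Hgd, Hsd17b7, Lpin2, Mvd, Pcyt1a, Rbm12b1 and Rora) and 9 that fell (Adgrv1, Gpr146, Ier2, Limd2, Mgst3, Nuak2, Ppargc1b, Spry4 and Zbtb16), and the call of the other 44 ended in at least 1 such fit. Of the 44, Ghr stayed called in 0 of the 6 fits, and Cyp17a1, Fabp2, Fabp4, Fads6, Scarb1 and Slc22a7 in 1. Among the 21, the calls of Hgd, Hsd17b7 and Pcyt1a ended when the brightest probe stood for each gene. The p-values and intervals rest on the spread between mice of the same diet, estimated over all 27 arrays and not over the 2 diets alone. The 3 arrays per diet limit the precision throughout.

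**Figure D1:**
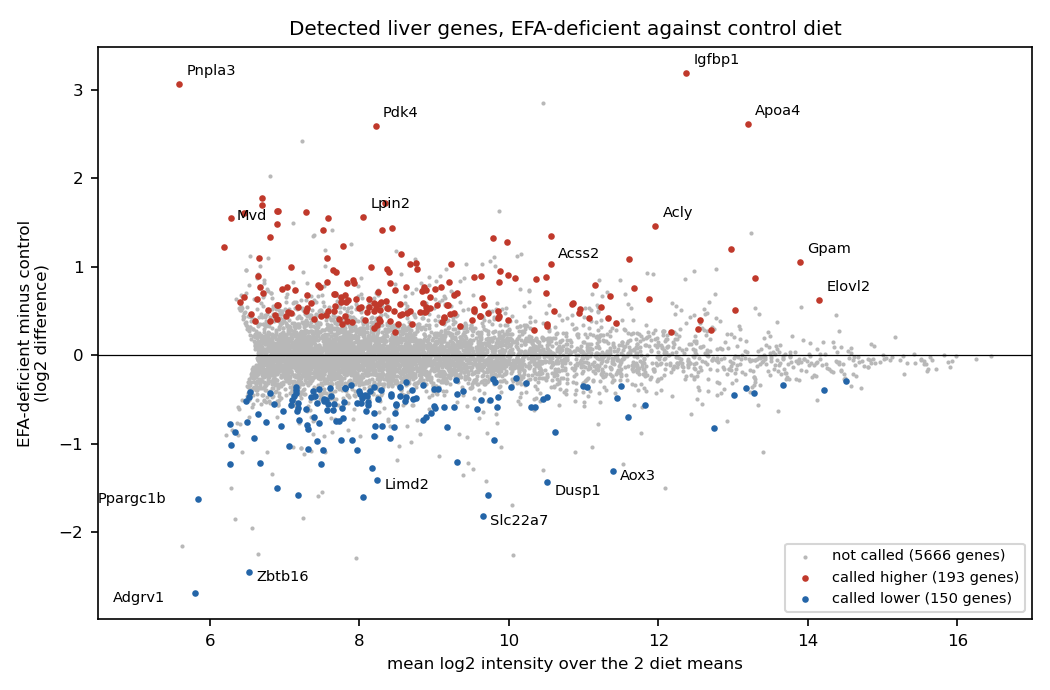
Difference between diets (EFA-deficient minus control, log2) of the 6009 detected genes plotted against their mean log2 intensity, with the 193 genes called higher in red, the 150 called lower in blue and the genes not called in grey. Most genes lie near 0. The labelled genes of large fitted difference, such as Igfbp1 and Apoa4 above and Adgrv1 and Zbtb16 below, lie across the range of intensity.

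Array medians over the detected genes lay between 8.30 and 8.36 on the log2 scale. The Euclidean distance over these genes averaged 30.39 among the EFA-deficient arrays, 28.94 among the control arrays and 35.62 between the diets, and the ranges overlapped (26.14 to 32.84, 26.56 to 33.28 and 31.57 to 41.32). All 11 hepatocyte markers were detected by the rule above and none of the markers of cholangiocytes, T and NK cells or neutrophils was.

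In the cholesterol synthesis list, 6 of 16 detected genes were called higher and none lower, beside 3.21% and 2.5% of all detected genes. All 16 had a higher mean on the EFA-deficient diet, with a median of 156.6% of control against 99.5% over all detected genes. Mvd, the mevalonate decarboxylase, was measured at 5.70, 5.81 and 6.98 on the control arrays and at 7.39, 8.09 and 7.45 on the EFA-deficient arrays (log2 intensity). All EFA-deficient arrays were above all control arrays, and Mvd rose to 279% of control (95% confidence interval 183 to 424%, adjusted p = 0.0019). Since 1 of its 3 control arrays was above the detection level, that percent rests partly on signal near background, and with arrays raised to the level it was 185%. Hmgcs1, which makes HMG-CoA from acetyl-CoA, was at 10.67, 10.90 and 11.61 on control and at 12.20, 12.58 and 11.66 on the EFA-deficient diet. The lowest EFA-deficient array was just above the highest control array, and expression rose to 213% of control (141 to 321%, adjusted p = 0.018).

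The other called members of the pathway act before and after squalene. Pmvk, the phosphomevalonate kinase that acts just before Mvd, rose to 194% of control (adjusted p = 0.011). Lss, which closes the sterol ring as lanosterol, was at 8.00, 7.75 and 8.74 on control and at 9.09, 9.54 and 8.97 on the EFA-deficient diet, without overlap, and rose to 205% of control (129 to 326%, adjusted p = 0.045). The later enzymes Hsd17b7 and Sc5d rose to 194% (adjusted p = 0.0054) and 169% (adjusted p = 0.028). Pmvk and Sc5d fell outside the rule for named genes and were chosen after their values were seen. The call of Pmvk ended in 2 of the 6 fits that left out 1 array and that of Sc5d in 3. Sqle, the squalene epoxidase, stood at 197% of control without passing the test (adjusted p = 0.15), as did Fdps at 188% (adjusted p = 0.091). The remaining 8 genes lay between 117% (Fdft1) and 145% (Idi1) of control. The number of called genes was 4 with p adjusted over this comparison alone, 3 when the brightest probe stood for each gene, and 2 (without EFA-deficient replicate 2) to 7 when each array was left out in turn, with 3 without control replicate 1 or 2.

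Promoters of 4 of the called cholesterol synthesis genes are shown. The windows run from 250 bases before to 50 bases after the start of transcription in RefSeq (build GRCm38.p6) and were searched on both strands for CCAAT (the letters bound by NF-Y), CACGTG (an E-box) and TCACNCCAC (a form of the sterol regulatory element), motifs that do not overlap one another in these windows. This set of genes was chosen after the values were seen. Capitals mark matches, and ATTGG is CCAAT on the opposite strand. The windows are chr13:119690101-119690400 (plus strand) for Hmgcs1, chr8:122443373-122443672 (minus strand) for Mvd, chr10:76531355-76531654 (plus strand) for Lss and chr1:169969156-169969455 (minus strand) for Hsd17b7.
Hmgcs1: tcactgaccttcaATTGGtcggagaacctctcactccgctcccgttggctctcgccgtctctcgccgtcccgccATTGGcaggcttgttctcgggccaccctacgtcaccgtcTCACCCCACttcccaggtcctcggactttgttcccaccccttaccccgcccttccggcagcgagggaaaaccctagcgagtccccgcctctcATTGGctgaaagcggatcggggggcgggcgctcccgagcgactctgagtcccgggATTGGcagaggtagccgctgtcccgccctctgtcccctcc
Mvd: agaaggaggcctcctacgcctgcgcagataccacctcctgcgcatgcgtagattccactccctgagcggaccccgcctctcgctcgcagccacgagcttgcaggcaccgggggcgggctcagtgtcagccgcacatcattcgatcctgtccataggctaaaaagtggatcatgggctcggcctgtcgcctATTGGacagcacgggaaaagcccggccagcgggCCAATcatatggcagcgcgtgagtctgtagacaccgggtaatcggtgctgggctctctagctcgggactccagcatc
Lss: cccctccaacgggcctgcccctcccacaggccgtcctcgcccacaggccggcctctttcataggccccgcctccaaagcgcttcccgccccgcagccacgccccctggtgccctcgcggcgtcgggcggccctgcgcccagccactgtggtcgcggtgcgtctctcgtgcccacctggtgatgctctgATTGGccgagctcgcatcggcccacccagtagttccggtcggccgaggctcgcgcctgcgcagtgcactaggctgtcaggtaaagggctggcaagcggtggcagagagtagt
Hsd17b7: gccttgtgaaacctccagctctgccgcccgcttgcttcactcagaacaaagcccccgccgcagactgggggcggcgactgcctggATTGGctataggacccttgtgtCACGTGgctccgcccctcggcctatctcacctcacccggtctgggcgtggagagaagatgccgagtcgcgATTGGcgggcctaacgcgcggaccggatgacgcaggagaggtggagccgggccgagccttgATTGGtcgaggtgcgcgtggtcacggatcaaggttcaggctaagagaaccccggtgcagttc

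Hmgcs1 held CCAAT at 4 places and TCACNCCAC at 1, Mvd held CCAAT at 2 places, Lss at 1, and Hsd17b7 held CCAAT at 3 places and CACGTG at 1. Sc5d held CCAAT and CACGTG at 1 place each, and Pmvk held CCAAT in the window of 1 of its 2 start sites. The search had been planned for the called genes of fatty acid synthesis, desaturation and elongation. Of these, Acly, Acss2 and Pnpla3 held CCAAT at 1 place each and neither CACGTG nor TCACNCCAC. Fads6 and Elovl2 held none of the motifs. Over 32851 mouse promoters of the same length, 37.4% held CCAAT, 7.15% held CACGTG and 1.24% held TCACNCCAC. These are matches of letters and not measured sites.

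**Figure D2:**
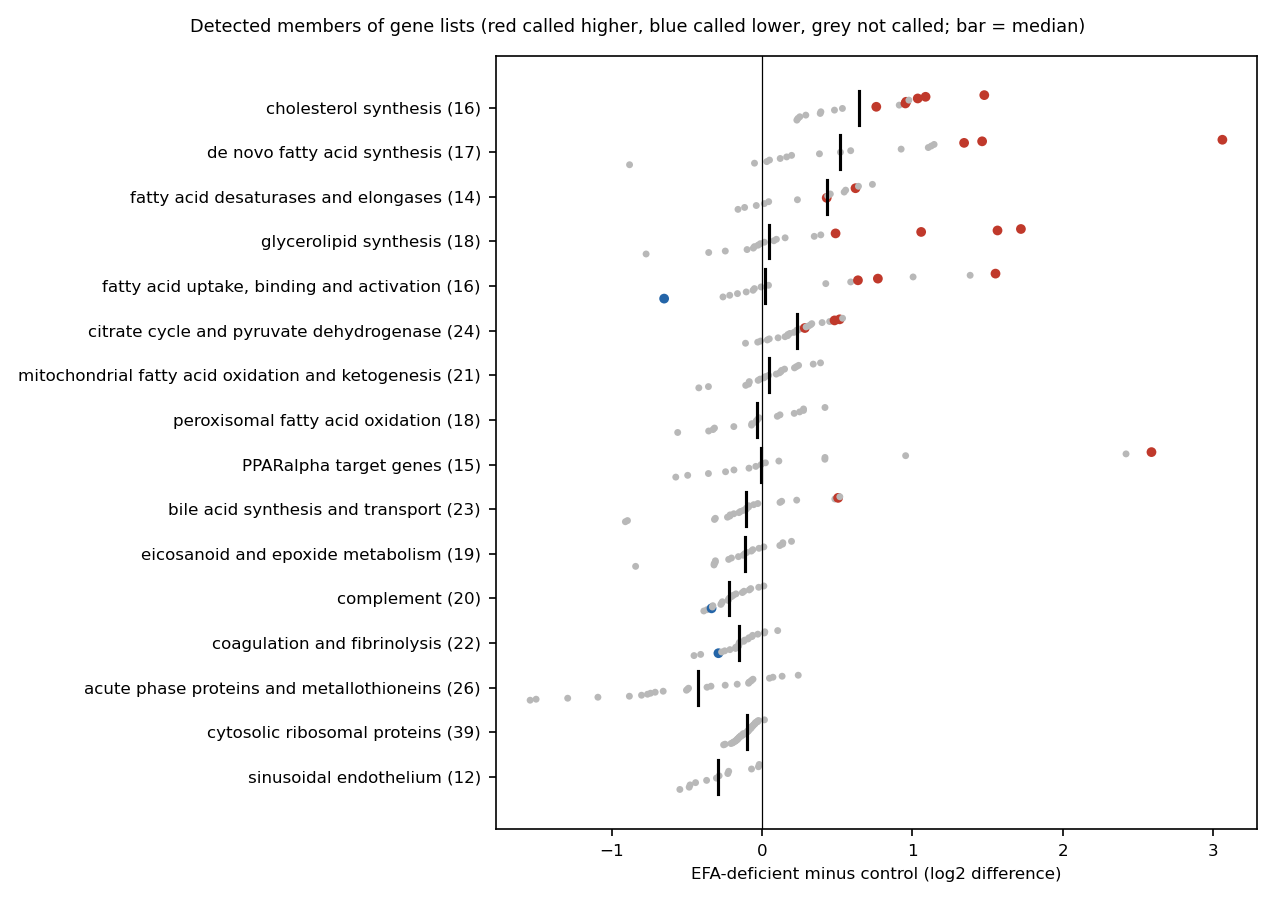
Difference between diets (EFA-deficient minus control, log2) of each detected gene in 16 gene lists, with the number of detected genes in parentheses, called genes in red (higher) or blue (lower), genes not called in grey and the median of each list as a black bar. The cholesterol synthesis genes all lie to the right of 0 with 6 in red, while the lists of complement, acute phase and ribosomal protein genes lie mostly to the left with at most 1 called gene each.

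Of 17 detected genes of de novo fatty acid synthesis, 3 were called higher and none lower, beside 3.21% and 2.5% of all detected genes. The list had a median of 143.5% of control. Acly, which makes cytosolic acetyl-CoA from citrate, was at 10.61, 11.04 and 12.02 on control and at 12.42, 13.60 and 12.05 on the EFA-deficient diet. The groups touched without overlapping, and Acly rose to 276% of control (150 to 507%, adjusted p = 0.030). Acss2, which makes acetyl-CoA from acetate, rose to 254% (152 to 423%, adjusted p = 0.018) although EFA-deficient replicate 3 (10.35) was below control replicate 3 (10.70). Pnpla3, a lipid droplet protein induced by Srebp-1c and ChREBP, was at 2.94, 3.12 and 6.11 on control, each below the detection level, and at 7.72, 8.56 and 5.08 on the EFA-deficient diet. With the control mean set at the level of an intensity of 100, the increase of Pnpla3 was at least 1.39-fold (adjusted p = 0.0082), and EFA-deficient replicate 3 lay inside the control range.

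The central enzymes of the pathway did not pass the test. Acaca, acetyl-CoA carboxylase, stood at 215% of control (98.5 to 470%, adjusted p = 0.22) and its mitochondrial counterpart Acacb at 218% (adjusted p = 0.10). Me1, the malic enzyme that supplies NADPH, stood at 190% (adjusted p = 0.37) and Fasn, the fatty acid synthase, at 144% (adjusted p = 0.70). Acaca was at 8.75, 9.23 and 9.78 on control and at 10.64, 11.78 and 8.66 on the EFA-deficient diet. Replicates 1 and 2 on the EFA-deficient diet were thus above every control array, while replicate 3 was below every control array. Me1 had the same order, with 12.96, 13.57 and 10.39 on the EFA-deficient arrays against 10.50, 11.54 and 12.10 on control. Without EFA-deficient replicate 3, Acaca stood at 388% (adjusted p = 0.0079) and Me1 at 369% of control (adjusted p = 0.015), and 6 genes of the list were called. No gene of the list was called without EFA-deficient replicate 2, without control replicate 1 or without control replicate 2.

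**Figure D3:**
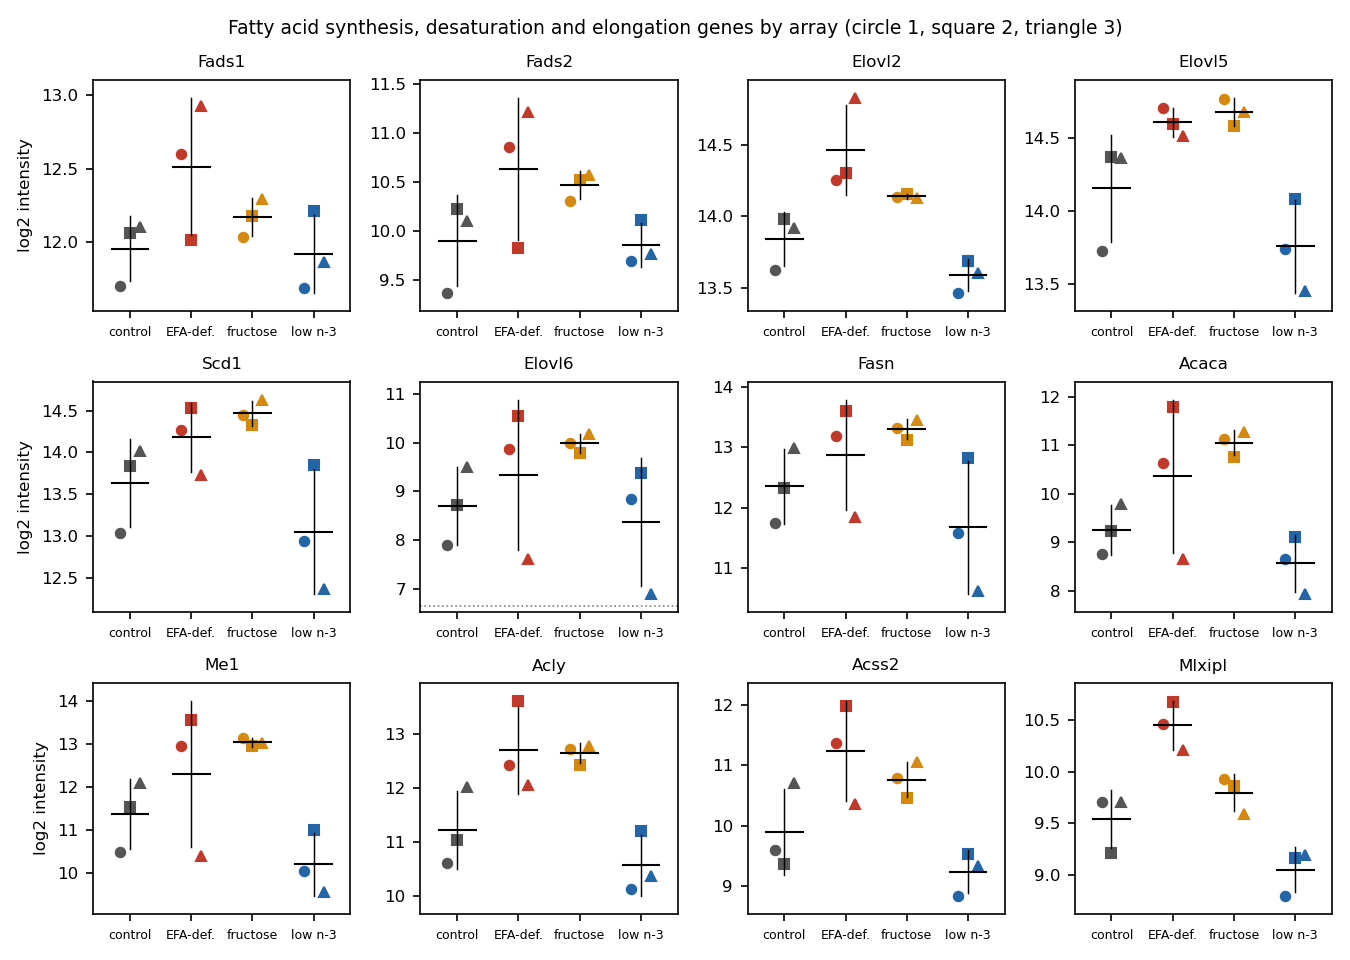
Log2 intensity on each array (circle replicate 1, square replicate 2, triangle replicate 3) of 12 genes of fatty acid synthesis, desaturation and elongation on the control, EFA-deficient, high-fructose and low n-3 diets, with the diet mean as a horizontal bar and 1 SD to each side as a vertical line. EFA-deficient replicate 3 is the highest array of its diet for Fads1, Fads2 and Elovl2 and the lowest for Fasn, Acaca, Me1 and Elovl6.

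Genes that lengthen and desaturate fatty acids were called higher for 2 of 14 detected members, beside 3.21% of all detected genes. Elovl2, which elongates polyunsaturated fatty acids on the way to DHA, was at 13.63, 13.98 and 13.92 on control and at 14.26, 14.31 and 14.83 on the EFA-deficient diet. Every EFA-deficient array was above every control array, and Elovl2 rose to 154% of control (124 to 191%, adjusted p = 0.010). Fads6, a member of the desaturase family of less well known function, rose to 135% (adjusted p = 0.043). The list had a median of 135.0% of control, and 11 of the 14 genes had a higher mean.

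Fads2 and Fads1, the desaturases that introduce double bonds into linoleic and alpha-linolenic acid products, did not pass the test. Fads2 was at 9.37, 10.23 and 10.10 on control and at 10.86, 9.83 and 11.22 on the EFA-deficient diet, or 166% of control (114 to 243%, adjusted p = 0.085). Fads1 was at 11.71, 12.06 and 12.11 on control and at 12.60, 12.01 and 12.93 on the EFA-deficient diet, or 147% (113 to 192%, adjusted p = 0.060). For both genes EFA-deficient replicate 2 lay within the control range and the other two EFA-deficient arrays lay above it. Without replicate 2, Fads2 stood at 220% (adjusted p = 0.0023) and Fads1 at 175% of control (adjusted p = 0.0040). Fads1 also passed the test with no filter on low signal, when all its probes were averaged (log2 difference 1.24, adjusted p = 0.0079). Elovl5 was higher on every EFA-deficient array than on every control array, at 137% of control (adjusted p = 0.25). Scd1, which makes monounsaturated fatty acids, stood at 146% (adjusted p = 0.27), Elovl6 at 156% (adjusted p = 0.59) and Elovl3 at 97.3% (adjusted p = 0.98). The call of Elovl2 ended without EFA-deficient replicate 3 or control replicate 1, and that of Fads6 in 5 of the 6 fits that left out an array and with p adjusted over this comparison alone.

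**Figure D4:**
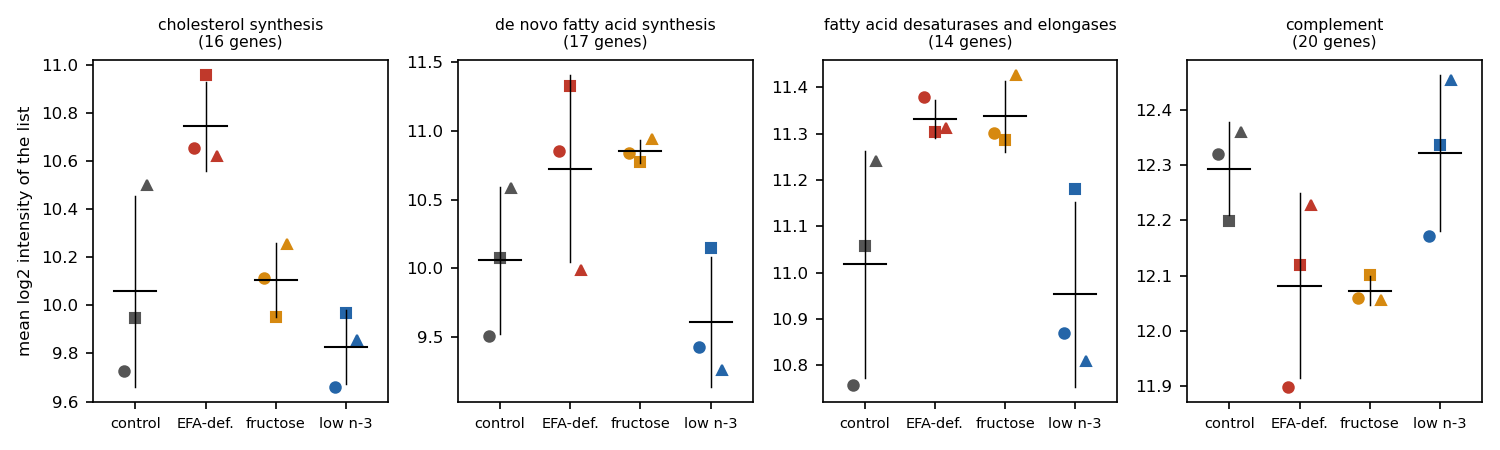
Mean log2 intensity over the genes of 4 lists on each array (circle replicate 1, square replicate 2, triangle replicate 3) of the control, EFA-deficient, high-fructose and low n-3 diets, with the mean of 3 arrays as a horizontal bar and 1 SD to each side as a vertical line. For cholesterol synthesis the 3 EFA-deficient arrays (10.62 to 10.96) lie above the 9 arrays of the other diets, the highest of which is control replicate 3 (10.50), whereas for de novo fatty acid synthesis EFA-deficient replicate 3 (9.99) lies among the control arrays (9.51 to 10.58).

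Glycerolipid synthesis had 4 called increases among 18 detected genes and no decrease, beside 3.21% and 2.5% of all detected genes. Its median was 103.3% of control. Gpam, which acylates glycerol-3-phosphate in the first step of triglyceride synthesis, was at 13.26, 13.02 and 13.82 on control and at 14.47, 14.86 and 13.95 on the EFA-deficient diet. Expression did not overlap between diets and rose to 208% of control (141 to 307%, adjusted p = 0.014). Lpin2, a phosphatidate phosphatase, rose to 296% (adjusted p = 0.0036). Chka, the choline kinase, rose to 330% (adjusted p = 0.035), and Pcyt1a, which catalyses the next step toward phosphatidylcholine, to 140% (adjusted p = 0.0062). The call of Chka ended in 4 of the 6 fits that left out 1 array, and that of Gpam in 2. Chka also lost its call with p adjusted over this comparison alone, array weights or the brightest probe. The list held 2 called genes with the brightest probe, and 2 when replicate 2 of either diet was left out. Dropping any other array gave 3 to 5. Dgat1 and Dgat2, which complete triglyceride synthesis, stood at 107% and 96.0% of control, and Lpin1 at 58.6% (adjusted p = 0.59).

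In the list of fatty acid uptake, binding and activation, 3 of 16 detected genes were called higher and 1 lower. The shares over all detected genes were 3.21% and 2.5%, and the median of the list was 101.2% of control. Acsl3, a long-chain acyl-CoA synthetase, rose to 293% of control (adjusted p = 0.0052). The fatty acid binding proteins Fabp4 and Fabp2 rose to 171% (adjusted p = 0.029) and 156% (adjusted p = 0.031), and Fabp4 is also a marker of adipocytes, of which 3 of 8 on the array were detected and the other two were not called. Acsm5, a medium-chain acyl-CoA synthetase, fell to 63.6% of control (adjusted p = 0.040). Fabp5 stood at 261% without passing the test (adjusted p = 0.12), and Fabp1, the abundant liver form, at 99.5%.

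Among 16 detected regulators of lipogenesis, 2 were called higher and 2 lower, beside 3.21% and 2.5% of all detected genes. Mlxipl, which encodes the sugar-responsive factor ChREBP, was at 9.71, 9.22 and 9.70 on control and at 10.46, 10.67 and 10.21 on the EFA-deficient diet. The diets did not overlap, and Mlxipl rose to 187% of control (133 to 263%, adjusted p = 0.017). Nfyb, a subunit of the CCAAT-binding factor NF-Y, rose to 130% (adjusted p = 0.033). Ppargc1b, a coactivator of Srebp-1c and of mitochondrial genes, was at 6.94, 6.50 and 6.54 on control and at 5.28, 5.10 and 4.72 on the EFA-deficient diet. It was lower on each EFA-deficient array (adjusted p = 1.4e-04), but because its control mean lay at the detection level the decrease is bounded only as at least 1.01-fold. Hnf4a, a nuclear receptor of hepatocyte identity, fell to 66.6% of control (adjusted p = 0.026). Transcripts of Srebf1, the gene for Srebp-1, stood at 91.8% (57.5 to 147%, adjusted p = 0.87).

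Fatty acid oxidation genes showed no call, with none of 21 mitochondrial and ketogenic genes and none of 18 peroxisomal genes past the test, and medians of 103.1% and 97.7% of control. Cpt1a, which controls entry of fatty acids into mitochondria, stood at 94.1% (65.3 to 136%). Of 15 detected PPARalpha target genes 1 was called higher, beside 3.21% of all detected genes. This was Pdk4, the kinase that inactivates pyruvate dehydrogenase. It was at 6.39, 7.05 and 7.31 on control and at 9.92, 10.06 and 8.55 on the EFA-deficient diet. The diets were well apart, and Pdk4 rose to 603% of control (236 to 1539.6%, adjusted p = 0.013), a call that ended without EFA-deficient replicate 2 or control replicate 1 (adjusted p = 0.052 and 0.056). Cyp4a14, a sensitive PPARalpha target, stood at 536% with overlapping arrays (adjusted p = 0.17). With 1 of 3 control arrays above the detection level, Cyp4a14 stood at 240% when arrays were raised to it.

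In the citrate cycle and pyruvate dehydrogenase list 3 of 24 genes were called higher and 21 had a higher mean, with a median of 117.3% of control. Over all detected genes, 3.21% were called higher and 2.5% lower. Dld, a subunit shared by pyruvate dehydrogenase and other dehydrogenase complexes, was at 9.43, 9.43 and 9.57 on control and at 9.79, 10.13 and 9.95 on the EFA-deficient diet. The increase to 140% of control (120 to 163%, adjusted p = 0.0052) was small and without overlap. Idh2 and Mdh2, mitochondrial dehydrogenases of the cycle, rose to 143% (adjusted p = 0.032) and 122% (adjusted p = 0.025). Slc2a2, the hepatic glucose transporter, fell to 56.4% of control (adjusted p = 0.020), and the glycolytic enzyme Pgam1 rose to 129% (adjusted p = 0.039), the 2 calls among 13 glycolysis and fructolysis genes. Khk and Pklr, enzymes of fructose and glucose breakdown, stood at 87.5% and 102% of control.

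Apolipoproteins and lipoprotein handling genes held 2 increases and 1 decrease among 23 detected genes, beside 3.21% and 2.5% of all detected genes. Their median was 96.1% of control. Apoa4, an apolipoprotein of triglyceride-rich particles, was at 11.43, 12.54 and 11.69 on control and at 14.58, 14.22 and 14.70 on the EFA-deficient diet. The lowest EFA-deficient array was above the highest control array, and Apoa4 rose to 613% of control (357 to 1051%, adjusted p = 6.4e-05). Apoc2, the activator of lipoprotein lipase, rose to 184% (adjusted p = 0.0039). Scarb1, the receptor that takes up cholesterol from high-density lipoprotein, fell to 66.7% (adjusted p = 0.049). Among 23 bile acid genes the canalicular transporter Abcc2 was called, at 142% of control (adjusted p = 0.033), and Cyp7a1, the rate-limiting enzyme of bile acid synthesis, stood at 53.2% with a wide interval (16.2 to 175%, adjusted p = 0.55).

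Igfbp1, a secreted binding protein of insulin-like growth factors that is repressed by insulin, had the largest fitted increase among called genes. It was at 11.96, 8.52 and 11.86 on control and at 13.90, 13.79 and 14.22 on the EFA-deficient diet. The EFA-deficient arrays lay close together above the control arrays, of which replicate 2 was far below the other two. Igfbp1 rose to 912% of control (302 to 2748%, adjusted p = 0.0097), and without control replicate 2 it stood at 417% (adjusted p = 0.0725). Over all detected genes, 3.21% were called higher and 2.5% lower. Igfbp1 was the 1 called gene of 12 detected in the list of insulin signalling and FOXO outputs. That list had a median of 105.0% of control, with 8 genes higher and 4 lower in mean. Ghr, the growth hormone receptor, fell to 77.8% (adjusted p = 0.046), a call that ended in each of the 6 fits that left out 1 array, with p adjusted over this comparison alone and with the brightest probe, so that 1 gene rose and 1 fell among 14 of the growth hormone and IGF axis. Of 10 clock genes Rora rose to 167% (adjusted p = 0.0071) and Bhlhe40 fell to 33.4% of control (adjusted p = 0.045).

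**Figure D5:**
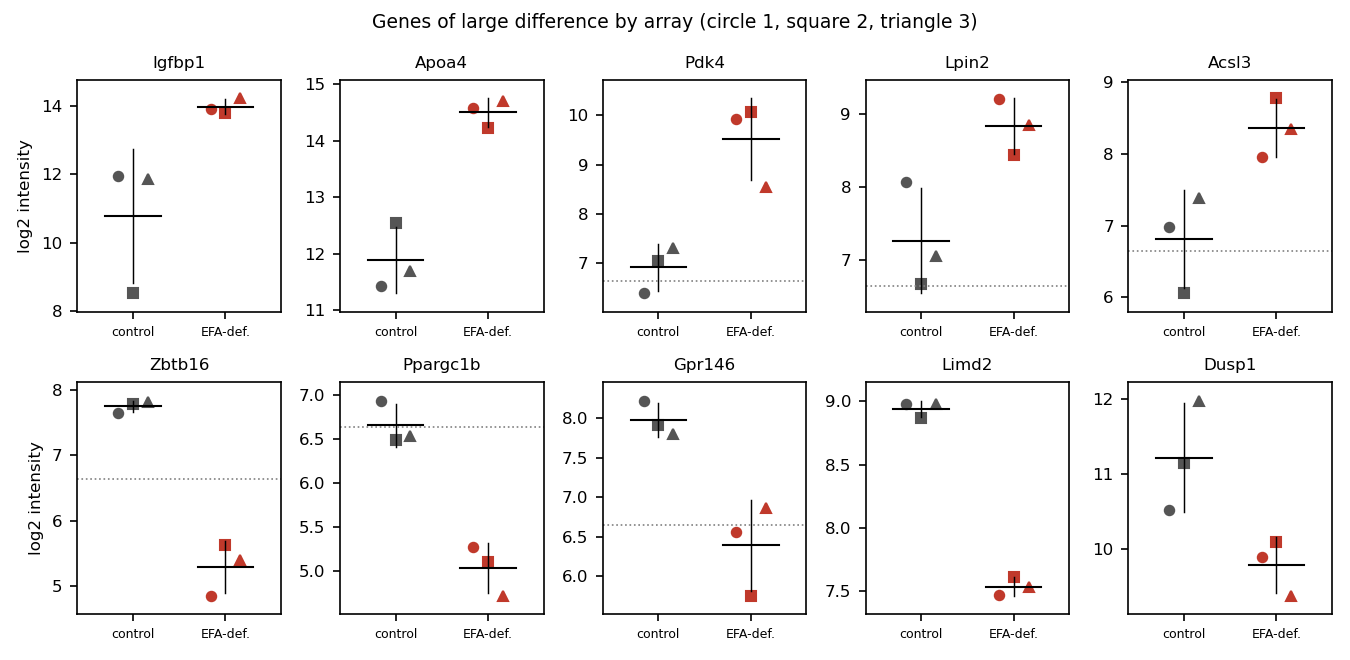
Log2 intensity on each control and EFA-deficient array (circle replicate 1, square replicate 2, triangle replicate 3) of 10 called genes of large fitted difference. The diet mean is a horizontal bar, 1 SD to each side a vertical line and the detection level a dotted line where it is in range. For Ppargc1b, whose control mean lies at the detection level, the decrease is bounded only as at least 1.01-fold. The diets do not overlap for any of the 10 genes, which was a condition of the rule that named them. Control replicate 2 lies far below the other control arrays for Igfbp1, and the 3 arrays of each diet nearly coincide for Limd2.

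The called decreases included transcriptional and signalling regulators. Zbtb16, a zinc finger transcription factor, was at 7.65, 7.79 and 7.81 on control and at 4.86, 5.64 and 5.41 on the EFA-deficient diet, each below the detection level, and was at least 2.15-fold lower (adjusted p = 0.0091). Limd2 was at 8.98, 8.87 and 8.98 on control and at 7.46, 7.61 and 7.53 on the EFA-deficient diet. Its arrays were tight and far apart, with a decrease to 37.7% of control (29.0 to 49.0%, adjusted p = 1.8e-05). Gpr146, a liver receptor known for its part in cholesterol levels, fell to 33.4% (adjusted p = 1.5e-04), with 1 of 3 EFA-deficient arrays above the detection level, and stood at 41.8% with arrays raised to the level. The feedback regulators Dusp1 and Spry4 fell to 37.1% (adjusted p = 0.027) and 35.5% (adjusted p = 0.0049), the latter being 1.82-fold lower with arrays raised to the level since 1 of 3 EFA-deficient arrays was above it, and the immediate early gene Ier2 to 41.4% (adjusted p = 0.0062). Adgrv1, an adhesion receptor, fell at least 1.41-fold (adjusted p = 9.9e-06) and Nuak2, a kinase of the AMPK family, at least 1.18-fold lower (adjusted p = 0.0019). Slc22a7, an organic anion transporter, fell to 28.4% (adjusted p = 0.041), Aox3, an aldehyde oxidase, to 40.4% (adjusted p = 0.014), Nr1i3, the xenobiotic receptor CAR, to 58.9% (adjusted p = 0.018) and Il1r1, the interleukin-1 receptor, to 42.8% (adjusted p = 0.048).

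Several other increases were in genes at or below the detection level on most control arrays. Cyp17a1, a steroid hydroxylase that is higher in female mouse liver, was at 6.51, 6.60 and 6.32 on control and at 8.23, 7.15 and 8.91 on the EFA-deficient diet, at least 2.73-fold higher (adjusted p = 0.025). Its call ended in 5 of the 6 fits that left out 1 array and with p adjusted over this comparison alone. Expression of Ccdc25 rose at least 2.12-fold (adjusted p = 0.0084), Atg16l2, related to the autophagy protein Atg16l1, at least 1.91-fold (adjusted p = 0.0024), the water channel Aqp4 at least 1.53-fold (adjusted p = 0.016) and Rbm12b1 at least 1.33-fold (adjusted p = 0.0047). Fst, the activin antagonist follistatin, stood at 5.05 to 7.08 on control and 7.13 to 8.44 on the EFA-deficient diet and rose to 309% of control (adjusted p = 0.038). With 1 of 3 control arrays above the detection level, Fst stood at 189% when arrays were raised to it. Hgd, an enzyme of tyrosine breakdown, was above the detection level on every control array (9.48 to 9.78) and rose to 184% (adjusted p = 0.0020). Its call ended with the brightest probe and with the filter at an intensity of 200. The lowest log2 difference of Hgd over the alternatives was 0.2266. Aldh4a1 was the other called gene of 40 in urea cycle and amino acid catabolism (adjusted p = 0.0498), beside 3.21% of all detected genes called higher. The arrays of Aldh4a1 overlapped between diets, and its call ended in 3 of the 6 fits that left out 1 array. It also ended with p adjusted over this comparison alone, centring, quantile normalization or the brightest probe.

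The lists that follow held at most 1 call in each direction, beside 3.21% of all detected genes called higher and 2.5% called lower. Of 10 genes of sterol sensing and uptake, Tmem97, which binds sterols and acts on the cholesterol carrier NPC1, rose to 148% of control (adjusted p = 0.049) and Scarb1, given above, fell. The call of Tmem97 ended in 4 of the 6 fits that left out 1 array. It also ended with p adjusted over this comparison alone, centring, quantile normalization or the brightest probe. Of 18 genes of lipid droplets and lipolysis, Pnpla3 rose and Ces1g, a carboxylesterase of lipid metabolism, fell to 54.7% (adjusted p = 0.019), while Plin2, a droplet coat protein, stood at 134% (adjusted p = 0.30). Of 29 genes of glutathione and the Nrf2 response, Gstt2, a glutathione transferase, rose to 176% (adjusted p = 0.031) and Mgst3, a microsomal glutathione transferase, fell to 49.0% (35.1 to 68.4%, adjusted p = 0.0059), or 60.2% with arrays raised to the detection level, which 1 of 3 EFA-deficient arrays exceeded. The median of that list was 113.2% of control. None of 27 genes of endoplasmic reticulum stress was called, with a median of 111.9%. Abtb2 rose to 270% of control (adjusted p = 0.029), Arhgef26, a guanine nucleotide exchange factor, fell to 33.0% (adjusted p = 0.020) and Nxpe2 fell to 43.2% (adjusted p = 0.025). For Nxpe2 1 of 3 EFA-deficient arrays was above the detection level, and the value with arrays raised to it was 67.6%.

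The complement, coagulation and acute phase lists held at most 1 call each, beside 2.5% of all detected genes called lower. Over all 6009 detected genes, 3095 had a lower mean on the EFA-deficient diet. Of 20 complement genes 19 had a lower mean, with a median of 85.9% of control, and Cfi, a complement inhibitor, fell to 79.2% (adjusted p = 0.049). The arrays of Cfi overlapped between diets, and its call ended in 4 of the 6 fits that left out 1 array. It also ended with p adjusted over this comparison alone, centring, quantile normalization or the brightest probe. Of 22 coagulation and fibrinolysis genes 19 had a lower mean (median 90.0%), and Plg, the gene for plasminogen, fell to 81.7% (72.3 to 92.4%, adjusted p = 0.032). None of 26 acute phase and metallothionein genes was called, 22 had a lower mean and the median was 74.3%. Saa1, a major acute phase protein, stood at 35.2% (adjusted p = 0.29) and Hamp, the iron hormone hepcidin, at 46.9% of control (adjusted p = 0.098). Of 39 cytosolic ribosomal protein genes 38 had a lower mean with no call and a median of 93.1%. As a percent of the high-fructose diet, the medians were 99.2% for complement, 105% for coagulation, 120% for acute phase and 96.2% for ribosomal protein genes. As a percent of the low n-3 diet, they were 84.2%, 89.0%, 77.2% and 93.3% in the same order. None of 19 genes of eicosanoid and epoxide metabolism, which use the n-6 product arachidonic acid, was called, and their median was 92.2%. None of 20 interferon and antigen presentation genes was called either, with a median of 112.0%.

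Markers of other liver cells were followed beside these results. All 12 detected markers of sinusoidal endothelium, of 14 on the array, had a lower mean on the EFA-deficient diet without a call (Stab1 73.6%, adjusted p = 0.066, and Stab2 71.4%, adjusted p = 0.073). The summed intensity of the 14 was 4378 to 5211 on control and 3319 to 4121 on the EFA-deficient diet, without overlap. The median of the detected endothelial markers was 86.8% of the high-fructose diet and 98.8% of the low n-3 diet. Against the low n-3 diet 5 had a higher and 5 a lower mean. Fewer cells of a type and less RNA per cell cannot be told apart in whole liver. Kupffer cell markers summed to 6684 to 7768 on control and 5136 to 9396 on the EFA-deficient diet, with replicate 2 the highest, and 9 of 11 detected markers had a lower mean. Hepatocyte markers summed to 450400 to 461900 and 422900 to 469400. Cela1, the 1 detected gene of 9 exocrine pancreas markers on the array, fell to 51.4% of control (adjusted p = 0.013). The part of these markers in the results was not tested.

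Against the high-fructose diet, which shares the high sugar content, 210 of 5968 genes (3.52%) differed, 164 higher (2.75%) and 46 lower (0.771%) on the EFA-deficient diet (limma, p adjusted over this comparison). This comparison uses the same EFA-deficient arrays as the comparison with control, so the values are set side by side only. The diets also differ in the kind of sugar, the fat and the cholesterol, as given above. Of the 343 genes called against control, 58 were called in the same direction against the high-fructose diet and 0 in the opposite direction. All 16 cholesterol synthesis genes had a higher mean than on the high-fructose diet, with a median of 152.8%, and 3 were called. Lss stood at 256% (adjusted p = 0.027), Idi1 at 195% (adjusted p = 0.029) and Hsd17b7 at 188% (adjusted p = 0.024) of the high-fructose mean. Mvd stood at 160% without passing the test (adjusted p = 0.18) and Hmgcs1 at 196% (adjusted p = 0.061). De novo fatty acid synthesis genes were not called, with a median of 94.3%, and Acly stood at 103.5%, Acaca at 61.6% and Fasn at 74.4% of the high-fructose mean.

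Several other genes differed from both diets. With each of their EFA-deficient arrays below the detection level, Ppargc1b was at least 1.03-fold lower than on the high-fructose diet (adjusted p = 0.0027) and Zbtb16 at least 1.83-fold lower (adjusted p = 0.041). Limd2 stood at 61.5% of the high-fructose mean (adjusted p = 0.038). Dld stood at 160% (adjusted p = 0.0036), Fads6 at 151% (adjusted p = 0.019), Fabp2 at 170% (adjusted p = 0.028) and Nfyb at 149% (adjusted p = 0.011). These genes passed the test against control as well, whereas Apoa4 (202%, adjusted p = 0.12), Pdk4 (223%, adjusted p = 0.31), Mlxipl (157%, adjusted p = 0.12) and Elovl2 (125%, adjusted p = 0.22) were called against control and not against the high-fructose diet. The number of calls against the high-fructose diet was 8 when replicate 3 of that diet was left out, 67 when its replicate 1 was, and 110, 99 and 125 without EFA-deficient replicates 1, 2 and 3.

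Against the low n-3 diet, 799 of 5973 genes (13.4%) differed, 520 higher (8.71%) and 279 lower (4.67%) on the EFA-deficient diet. These diets also differ in sugar and in the kind of fat, as given above. Of the 343 genes called against control, 222 were called in the same direction and 0 in the opposite direction, with the EFA-deficient arrays again shared. De novo fatty acid synthesis had 8 of 17 genes called higher (median 207%), cholesterol synthesis 7 of 16 (median 184%) and the desaturases and elongases 5 of 14 (median 129%). Acly stood at 435% of the low n-3 mean (adjusted p = 0.0033), Acaca at 347% (adjusted p = 0.034) and Elovl2 at 184% (adjusted p = 0.0013). Mvd, below the detection level on each low n-3 array, was higher by at least 2.00-fold (adjusted p = 8.0e-04). Fads1 stood at 151% (adjusted p = 0.039) and Fads2 at 172% (adjusted p = 0.055). Apoa4 stood at 922% of the low n-3 mean (adjusted p = 8.1e-05). There were 51 genes called in the same direction against control, high-fructose and low n-3. The number of calls was 309 without low n-3 replicate 3, 482 without low n-3 replicate 1, and 509 and 339 without EFA-deficient replicates 1 and 2.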

How the data were processed

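Liver RNA of 3 mice per diet was measured on Affymetrix mouse genome arrays. The authors deposited log2 values from GCRMA, which corrects background, normalizes by quantiles and summarizes probes. Of 45101 probes, 34958 have 1 gene symbol in GEO's platform annotation, 932 have several and 9211 have none. Probes with a diet mean above log2(100) on at least 1 diet (10582) were kept, single-symbol probes (9523) were averaged by gene, and 6478 genes were fitted with limma 3.58.1 in R 4.3.3 over all 27 arrays. The study's methods give the filter, the control and limma on probes, with a one-way ANOVA and Dunnett test on averages of several probes, so limma on gene averages is a choice made here. A gene was called at an adjusted p below 0.05 (Benjamini-Hochberg), against control over all genes and 8 diets, otherwise over the comparison alone. Percent of control is 2 to the power of the log2 difference, with a 95% confidence interval. Where each array of a diet was at or below 100, a fold is bounded by 100. Genes were named by rule: the 15 largest called increases and decreases with arrays not overlapping, up to 4 called genes per list, and key lipid genes. Members and lists were chosen with earlier results of these data known. Alternatives were another filter, scaling, probe choice, array weights, replicate block, the methods' Dunnett test and leaving out each array. Scripts were tested on simulated data.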

Additional observations from a re-analysis of the deposited data

How the results depend on the processing

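The count of 343 genes called against control stayed between 241 and 379 with other filters, centring, quantile normalization, a trended robust prior or the brightest probe per gene. It was 184 with p adjusted over this comparison alone, 2 in a fit of the 2 diets alone, 621 with array weights, 8 with the methods' Dunnett test adjusted over genes (470 unadjusted), and 145 (without control replicate 2) to 380 when each array was left out. Without EFA-deficient replicate 2 it was 212. The share of calls that were higher, 56.3%, was 49.9% after quantile normalization, 48.1% with the brightest probe and 48.0% with array weights. Against the high-fructose diet the 210 calls became 368 with p adjusted together with the 8 diets, 43 for the 2 diets alone, 126 with no filter, and 8 to 258 when each array was left out. Against the low n-3 diet the 799 calls became 164 for the 2 diets alone, 487 with no filter, and 309 to 825 when each array was left out.

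Arrays with the same replicate number did not deviate together (correlations 0.038, -0.049 and -0.119), so the numbers were not taken as pairs. With a replicate block 360 genes were called, and all 65 called genes named by the rule stayed called, while Fads1 just passed the test (adjusted p = 0.0494). Of those 65, 37 stayed called with p adjusted over this comparison alone, 2 with the 2 diets alone, 5 with the adjusted Dunnett test and 29 to 48 when each array was left out (Pnpla3 was not detected without EFA-deficient replicate 2). With EFA-deficient replicate 3 and control replicate 1 both left out, a setting chosen after seeing the data, 330 genes were called and 43 of the 65 stayed.

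Among 1683 values of named genes over the other fits, 1290 kept direction and side of the threshold, 369 lost the call, 7 gained it and 17 changed sign. The sign changes were in 7 genes that were not called in the report. When each array was left out, the log2 difference ranged from -0.0629 to 0.0393 for Fabp1, from -0.5462 to 0.9234 for Pklr, from -0.1509 to 0.1092 for Elovl3, from -0.3217 to 0.2657 for Cpt1a, from -0.3145 to 0.0394 for Srebf1, from -0.1657 to 0.9166 for Thrsp and from -0.474 to 0.1485 for Khk. Fabp1 also became 0.0194 with quantile normalization and 0.0331 with the 2 arrays left out together, and Pklr became -0.0192 with the brightest probe. The cause of these changes was not tested. The 3 arrays per diet, and signal near the detection level for Ppargc1b, Nuak2 and Pnpla3, limit the precision.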

Other observations

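Genes with some of the largest differences did not pass the test and fell outside the rule for named genes, and those given here were chosen after their values were seen. Depp1, a gene induced by FOXO factors, was at 11.29, 7.66 and 8.14 on the control arrays and at 11.67, 11.98 and 11.98 on the EFA-deficient arrays (adjusted p = 0.053). Its EFA-deficient arrays were all above the control arrays, 1 of which was close. Klf10, a transcription factor of early responses, was at 8.01, 9.59 and 9.71 on control and at 7.14, 7.45 and 5.84 on the EFA-deficient diet (adjusted p = 0.060). Angptl8, an insulin-induced secreted protein of triglyceride metabolism, was at 9.25, 12.32 and 12.01 on control and at 8.67, 9.38 and 8.74 on the EFA-deficient diet (adjusted p = 0.11). Cyp26a1, which breaks down retinoic acid, was at 4.36, 7.42 and 5.59 on control and at 7.10, 8.06 and 8.27 on the EFA-deficient diet (adjusted p = 0.080). For Klf10, Angptl8 and Depp1, control replicate 1 was the control array nearest to the EFA-deficient arrays.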
